A study of Mus musculus with 20 samples.

Results

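Genes of the GABA system and of hippocampal interneurons were followed through the hippocampal RNA-Seq of 20 humanized APOE mice. The set was chosen by gene name and not by any measured value, and holds 29 of the 33119 genes in the deposited table of counts. It covers 5 genes of GABA synthesis, packaging, uptake and breakdown, the scaffold gene Gphn, 9 GABAA receptor subunits, 2 GABAB receptor subunits, 7 peptide, calcium-binding and matrix protein genes, 3 transcription factors, and the genes Kcnc1 and Erbb4. All 29 passed the filter on low counts that 21724 genes passed. The scarcest, Dlx2, had between 113 and 248 counts per mouse.

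The mice were male hAPOE3 (M.APOE3, S154 to S158), male hAPOE4 (M.APOE4, S174 to S178), female hAPOE3 (F.APOE3, S144 to S148) and female hAPOE4 (F.APOE4, S164 to S168), 5 in each of the 4 groups. All were 16 months old, on a C57BL/6 background and homozygous for a targeted replacement, in which the human APOE3 or APOE4 allele stands in the place of mouse Apoe. No group carried mouse Apoe, so each genotype comparison sets one human allele against the other. PolyA RNA of the whole hippocampus was sequenced, hence fewer cells of a type and less RNA per cell cannot be told apart in any value here.

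GABA is the main inhibitory transmitter of the adult hippocampus. It is made from glutamate by the GAD enzymes, loaded into vesicles by the transporter encoded by Slc32a1, sensed by chloride channels (GABAA receptors) and G protein coupled receptors (GABAB receptors), and cleared by transporters and the transaminase encoded by Abat. It is released by interneurons, a diverse minority of hippocampal neurons that are told apart by the calcium-binding proteins and peptides they hold, such as parvalbumin, somatostatin, vasoactive intestinal peptide and neuropeptide Y.

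Counts per mouse ranged from 35778879 to 52520279, and 190 pairs of libraries all differed by more than sampling noise (chi-square at least 7.46 per degree of freedom). Xist lay between 654 and 988 CPM (counts scaled to library size with TMM factors) in the females and between 3.95 and 28.4 in the males. All 10 listed markers of dentate granule cells and all 10 of CA pyramidal cells were detected, with summed levels from 260 to 647 and from 453 to 943 CPM. Some libraries stood apart. The summed level of 12 thalamus markers was 776 CPM in S158, 726 in S176 and 696 in S178, all males, and between 113 and 227 CPM in the other 17 mice. None of those markers was at 0 in all mice. The 17 striatum markers in the table summed to 1181 CPM in S158 and to between 189 and 400 CPM in the others. The nuclear oxidative phosphorylation score, the mean of centred log2 CPM over the subunit genes of the respiratory chain, lay between 0.27 and 0.42 in the hAPOE3 mice S147, S148, S156, S157 and S158, between -0.32 and -0.14 in the other hAPOE3 mice, and between -0.18 and 0.05 in the hAPOE4 mice. The 12 choroid plexus markers summed to between 94.96 and 6719 CPM, with group means of 1224 in M.APOE3, 857 in M.APOE4, 2434 in F.APOE3 and 3713 in F.APOE4. Results that rest on these libraries are given with and without them where such fits were run.

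**Figure D1:**
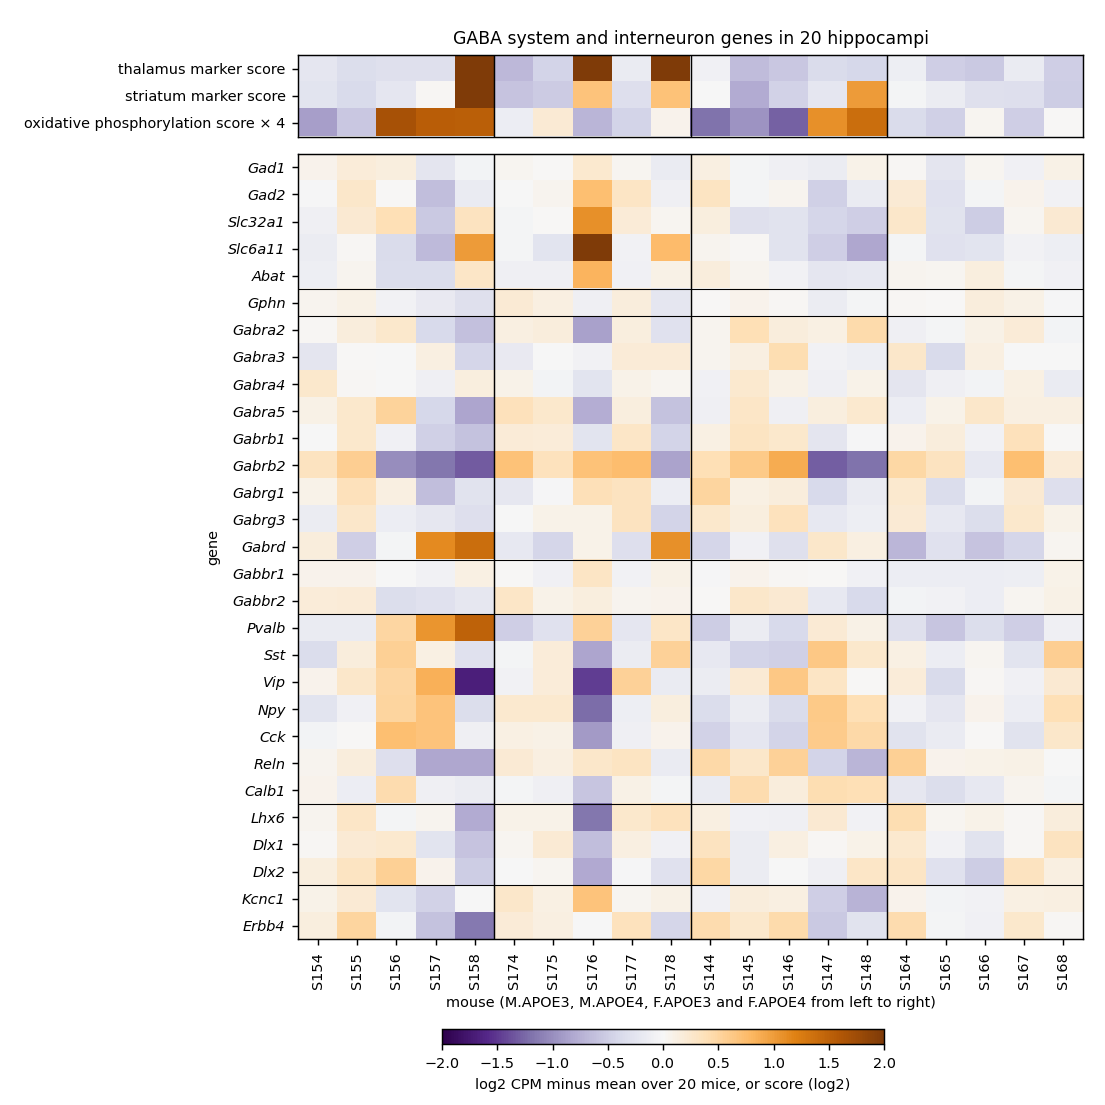
Log2 CPM of the 29 genes (rows, grouped by role) minus each gene's mean over 20 mice (columns, grouped by condition), beneath 3 library scores in the same colour scale, the oxidative phosphorylation score being multiplied by 4. The columns of S158 and S176, and the rows of Gabrb2, Slc6a11 and Vip, depart most from 0, and no row separates the 4 groups.

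To compare levels between genes, CPM were divided by the length of the gene's merged exons in kb, in the GRCm38 annotation. On this scale the neuropeptide genes Cck (mean 173.8 CPM per kb over 20 mice) and Sst (166.1) stood highest, and the transcription factor gene Dlx2 (1.67) and the GABAA subunit gene Gabrg3 (1.85) lowest. Cck ranged from 88.9 to 275 CPM per kb and Sst from 89.9 to 249, so that their order was within the spread over mice. Among the synthesis genes, Gad1 (71.7 CPM per kb) stood above Gad2 (26.4), Slc32a1 (24.2) and Slc6a11 (33.0), and its lowest mouse, at 60.6, was above the highest Gad2 mouse, at 42.6.

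**Figure D2:**
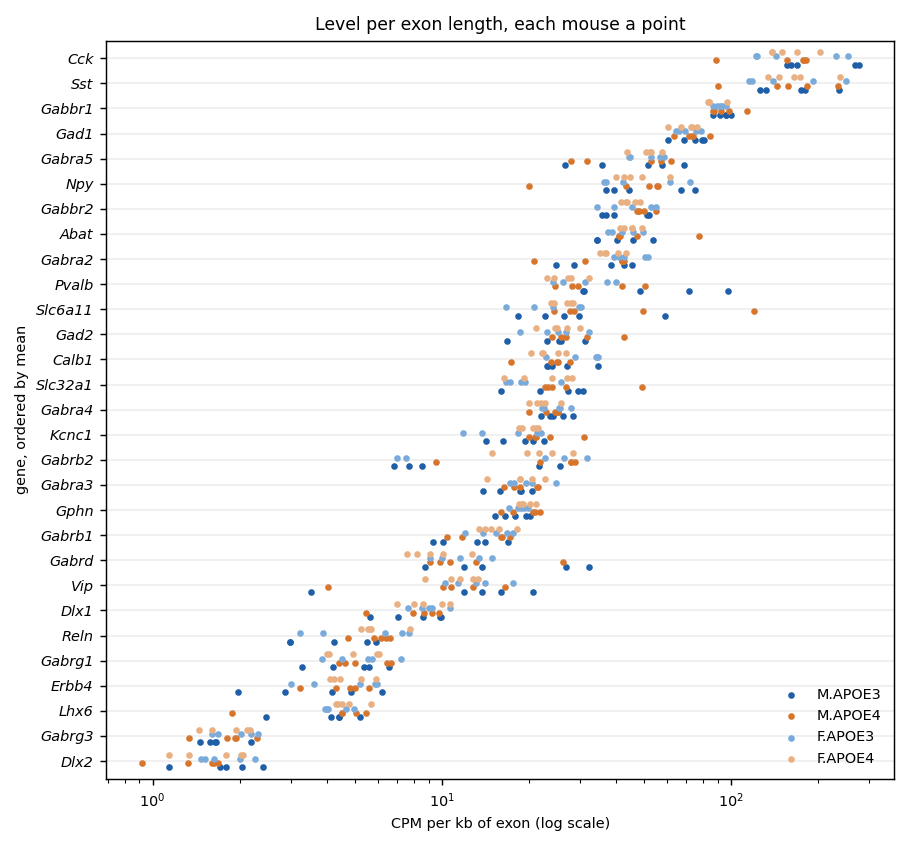
CPM per kb of merged exons on a log scale for each gene, ordered by mean, with 1 point per mouse coloured by group. The means run from 1.67 (Dlx2) to 173.8 (Cck), and the 4 groups overlap for each gene.

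Spread between mice of 1 group differed widely within the set. The within-group SD of log2 CPM had a median of 0.33 over the 29 genes and of 0.28 over the 21724 genes tested. It was smallest for Gabbr1 (0.11), Gphn (0.14), Gabra4 (0.14) and Gad1 (0.14), and largest for Gabrb2 (0.79), Vip (0.65), Slc6a11 (0.60) and Gabrd (0.54). Gabrb2 thus varied more between mice of 1 group than 94.6% of all genes tested, and Gabbr1 more than 3.59%.

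The synthesis and packaging genes lie on chromosome 2, and the group means of Gad1 differed less than those of Gad2 and Slc32a1. Gad1 and Gad2 encode the 2 forms of glutamate decarboxylase. Gad1 (chr2:70553072-70602014) averaged 318 ± 36.4 CPM (SD, n = 5) in M.APOE3, 320 ± 32.7 in M.APOE4, 309 ± 26.8 in F.APOE3 and 305 ± 26.8 in F.APOE4. Its 95% interval for the log2 fold change of hAPOE4 against hAPOE3 was -0.20 to 0.22 in males. Gad2 (chr2:22622205-22693874) averaged 140.5 ± 30.4, 173.6 ± 43.0, 144.8 ± 28.8 and 147.1 ± 18.7 CPM in the same order. The highest Gad2 mouse was S176, at 245 CPM, and the lowest S157, at 96.1. Slc32a1 (chr2:158610767-158615748), the vesicular GABA transporter, averaged 70.0 ± 16.95, 81.7 ± 31.8, 54.6 ± 10.2 and 64.3 ± 14.1 CPM. Its highest mouse was again S176, at 138 CPM, and the other 19 mice lay between 44.9 and 85.7.

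Among the genes of uptake and breakdown, Slc6a11 (chr6:114131241-114249952) encodes GAT3, the GABA transporter found mainly on astrocytes. It was at 75.9, 93.7, 109, 123 and 244 CPM in hAPOE3 males, and at 101, 115, 118, 205 and 495 CPM in hAPOE4 males. In hAPOE3 females it was at 68.7, 85.6, 100, 123 and 125 CPM, and in hAPOE4 females at 98.5, 101, 112, 115 and 118 CPM. The 3 highest values were those of S176, S158 and S178, the mice with the high thalamus markers, and the other 17 mice did not exceed 125 CPM. Abat (chr16:8513429-8621568), the GABA transaminase, reached 411 CPM in S176 and 285 in S158 and lay between 182.7 and 262.5 CPM in the others.

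The GABAA receptor is a pentamer, usually of α, β and γ or δ subunits. The α2, α4, β1 and γ1 genes sit together on chromosome 5, between Gabrg1 (chr5:70751047-70842617) and Gabrb1 (chr5:71658113-72149037), and the α5 and γ3 genes on chromosome 7. The annotated ends of Gabra4 (chr5:71569749-71658308) and Gabrb1 overlap on opposite strands, so that reads from that stretch could be split between them. Neighbours differed in their spread over mice. Gabra4 stayed between 83.6 and 119 CPM in all 20 mice, while Gabra2, the α2 gene, ranged from 122 CPM in S176 to 301 in S148. Gabra5, the α5 gene of extrasynaptic and hippocampus-enriched receptors, was lowest in S158 (79.5 CPM), S176 (83.2) and S178 (94.2), against 106 to 204 CPM in the others. The remaining subunit genes were Gabra3 (α3, on the X chromosome) at 53.6 to 95.85 CPM, Gabrb1 (β1) at 128 to 250.3, Gabrg1 (γ1) at 15.6 to 34.45 and Gabrg3 (γ3) at 14.86 to 25.8.

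Gabrb2 (chr11:42419757-42629028), which encodes the β2 subunit, had the widest within-group spread. It was at 28.1, 31.6, 34.9, 88.9 and 105 CPM in hAPOE3 males and at 28.6, 30.9, 93.4, 109 and 130 CPM in hAPOE3 females. In hAPOE4 males it was at 39.3, 89.8, 115, 115 and 119 CPM, and in hAPOE4 females at 61.3, 80.9, 89.0, 98.3 and 116 CPM. The 5 values under 35 CPM were those of S147, S148, S156, S157 and S158, the hAPOE3 mice with the high oxidative phosphorylation score, and no other hAPOE3 mouse was under 88.9. The order was kept in the normalized counts that the authors deposited, in which these 5 mice lay between 1202 and 1543 and the other hAPOE3 mice between 3821 and 5507.

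Gabrd (chr4:155384980-155398112) encodes δ, a subunit of extrasynaptic receptors of dentate granule cells and interneurons. It was at 16.8, 23.0, 26.4, 51.7 and 61.8 CPM in hAPOE3 males and at 17.5, 18.9, 20.5, 25.1 and 50.2 in hAPOE4 males. In hAPOE3 females it was at 17.5, 19.2, 22.1, 25.8 and 28.5 CPM, and in hAPOE4 females at 14.53, 15.8, 17.5, 19.3 and 24.4. Males and females overlapped, and the 3 values above 50 CPM came from S157, S158 and S178. Of the GABAB genes, Gabbr1 (chr17:37045966-37075067) averaged 605 CPM, with a coefficient of variation of 7.98% over 20 mice, and Gabbr2 (chr4:46662305-46991873) 262 CPM, with 13.7%. Gphn, the gene of the scaffold protein gephyrin that holds GABAA and glycine receptors at synapses, ranged from 56.1 to 80.3 CPM.

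Gabbr1 was at 549.6, 552, 552, 554 and 639 CPM in hAPOE4 females and at 569, 577, 606, 649 and 748 in hAPOE4 males. The ranges overlapped through S168, the highest of the females. Gabbr2 was at 205, 213, 226, 294 and 299 CPM in hAPOE3 males and at 271, 274, 275, 287 and 316 in hAPOE4 males. Gabbr2 in hAPOE3 females was at 198, 226, 261, 303 and 316 CPM, and in hAPOE4 females at 238, 249, 250, 268 and 279, inside the range of the hAPOE3 females.

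Among the genes of interneuron classes, Pvalb (chr15:78191114-78206400) encodes parvalbumin, the calcium-binding protein of fast-spiking basket and axo-axonic cells. It was at 31.9, 32.2, 50.5, 74.3 and 101 CPM in hAPOE3 males and at 25.6, 29.2, 30.8, 43.7 and 52.2 in hAPOE4 males. In hAPOE3 females it was at 25.3, 27.3, 32.5, 38.6 and 41.5 CPM, and in hAPOE4 females at 24.1, 25.5, 28.4, 29.1 and 33.5. The groups overlapped, and the 2 mice above 60 CPM, S157 and S158, were hAPOE3 males. Vip, the gene of vasoactive intestinal peptide, was at 5.39 CPM in S158 and 6.2 in S176 and between 13.4 and 31.5 CPM in the other 18 mice. Both of those mice carried high thalamus markers, while S178, the third such mouse, had 15.4 CPM of Vip.

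Sst, Npy and Cck encode the peptides somatostatin, neuropeptide Y and cholecystokinin. Npy marks Sst cells and neurogliaform cells, while Cck is also made by pyramidal cells. The 3 were low together in S176, at 64.8, 11.3 and 103 CPM, and high together in S147, at 179, 40.8 and 295 CPM. For these 3 peptide genes the 250 bases before each start site are shown (RefSeq, GRCm38.p6, 5′ to 3′ on the gene's strand). Whether these sequences bear on the values in S176 and S147 was not tested. Capitals mark TGACG or its complement CGTCA, the half-site of the cAMP response element, whose full form is TGACGTCA.
Sst, chr16:23890845-23891094, minus strand: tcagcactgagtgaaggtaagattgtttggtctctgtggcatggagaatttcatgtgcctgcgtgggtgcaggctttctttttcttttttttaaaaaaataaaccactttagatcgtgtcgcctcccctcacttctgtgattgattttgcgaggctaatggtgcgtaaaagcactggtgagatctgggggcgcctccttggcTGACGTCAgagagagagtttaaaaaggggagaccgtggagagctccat
Npy, chr6:49822460-49822709, plus strand: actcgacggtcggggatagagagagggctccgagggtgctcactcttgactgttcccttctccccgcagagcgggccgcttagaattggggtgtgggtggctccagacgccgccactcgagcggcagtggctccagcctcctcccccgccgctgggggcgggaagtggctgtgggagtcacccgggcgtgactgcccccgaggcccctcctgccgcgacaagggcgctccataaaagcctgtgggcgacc
Cck, chr9:121495695-121495944, minus strand: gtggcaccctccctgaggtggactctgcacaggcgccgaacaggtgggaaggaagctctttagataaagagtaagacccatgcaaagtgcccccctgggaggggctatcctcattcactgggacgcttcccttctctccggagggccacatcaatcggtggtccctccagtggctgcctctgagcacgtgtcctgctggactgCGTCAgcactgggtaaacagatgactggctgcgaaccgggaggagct
The GENCODE model of Sst begins within its window, upstream of the RefSeq start. Sst held 1 full element, which begins 48 bases before the start and contains a half-site on each strand. Cck held 1 half-site, 47 bases before the start, and the Npy window held none of these letters. Read on both strands, the full element was in 1.55% of 32851 mouse promoter windows of 250 bases and a half-site in 17.8%. Of the 26 genes of the set with an entry, 6 held a half-site (Cck, Dlx2, Gad2, Kcnc1, Sst and Vip) and 1, Sst, the full element. Abat, Calb1 and Gabrd had no entry.

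Reln encodes reelin, secreted by Cajal-Retzius cells and by interneurons of the outer layers, and Calb1 encodes calbindin, which is shared by interneurons, granule cells and some pyramidal cells. Reln (chr5:21884454-22344702) was at 35.0, 35.0, 49.7, 64.2 and 69.4 CPM in hAPOE3 males and at 55.2, 68.1, 71.9, 74.8 and 77.4 in hAPOE4 males. It was at 37.7, 45.5, 74.5, 85.1 and 90.1 CPM in hAPOE3 females and at 61.4, 65.1, 65.8, 66.5 and 90.9 in hAPOE4 females. The 5 values under 50 CPM were again those of S147, S148, S156, S157 and S158. Unlike Gabrb2, Reln was not set apart in these mice in the authors' normalized counts, where they lay between 2183 and 3479 and the other hAPOE3 mice between 2315 and 3534. The factor by which the authors divided the Reln count, relative to the median factor of the same mouse, was 0.56 to 0.61 in S147, S148, S157 and S158, 1.00 in S156 and 0.67 in S178, while that of Gabrb2 was between 0.97 and 1.02 in all mice.

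Calb1 (chr4:15881264-15908064) was at 97.8, 98.6, 102, 114 and 146.4 CPM in hAPOE3 males and at 73.4, 101, 105, 106 and 117 in hAPOE4 males. In hAPOE3 females it was at 96.9, 122, 143.5, 145.3 and 146.3 CPM, and in hAPOE4 females at 85.7, 93.5, 94.6, 106 and 113. Of the hAPOE3 females 4 lay above all hAPOE4 females, and S144 lay among them. The transcription factor genes of interneurons born in the ganglionic eminences differed in level. Lhx6 ranged from 6.96 to 21.1 CPM, Dlx1 from 22.4 to 44.0 and Dlx2 from 2.27 to 5.96, each with its lowest value in S176 and its next lowest, for Lhx6 and Dlx1, in S158.

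Kcnc1 (chr7:46396497-46438704), the gene of the potassium channel Kv3.1 of fast-spiking cells, lies on the same chromosome as Apoe, 26.7 Mb from it. It was at 134, 153, 182, 194 and 212 CPM in hAPOE3 males and at 188, 197, 199, 222 and 292 in hAPOE4 males. In hAPOE3 females it was at 111, 130, 173, 201 and 206 CPM, and in hAPOE4 females at 173, 176.9, 193, 198 and 201. Genotypes overlapped in both sexes. Erbb4, the neuregulin receptor of parvalbumin cells, ranged from 23.8 CPM in S158 to 75.0 in S155.

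Genotype was compared first within males. With edgeR's quasi-likelihood test and Benjamini-Hochberg adjustment over all genes, 0 of the 29 genes differed between hAPOE4 and hAPOE3 males, against 0.621% of all genes tested. At an unadjusted p under 0.05 there was 1, Pvalb, or 3.45% of the set against 9.06% of all genes. The median log2 fold change of the set was 0.05, with 17 genes higher and 12 lower, and that of all genes 0.00. Pvalb averaged 58.0 ± 29.7 CPM in hAPOE3 males and 36.3 ± 11.2 in hAPOE4 males, a log2 fold change of -0.68 ± 0.27 (SE, adjusted p = 0.443 by edgeR, 95% interval -1.24 to -0.11). The value was -0.38 without S158 alone. Without the 5 hAPOE3 mice of the high oxidative phosphorylation score, which left only S154 and S155 as hAPOE3 males, it was 0.17, its direction being lost. Reln was higher in hAPOE4 males by 0.46 ± 0.22 and Kcnc1 by 0.33 ± 0.16, both log2 fold changes with adjusted p = 0.557 in edgeR. Without S176 the value of Kcnc1 was 0.21, and without the 5 hAPOE3 mice those of Reln and Kcnc1 were 0.05 and 0.11. In the authors' normalized counts Reln was 0.06 higher (limma, adjusted p = 0.902).

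Between hAPOE4 and hAPOE3 females 0 of the 29 genes passed, against 0.667% of all genes, and 1 (3.45%, against 10.1% of all genes) had an unadjusted p under 0.05. That gene was Calb1, with means of 98.6 ± 10.9 CPM in hAPOE4 and 131 ± 21.4 in hAPOE3 females and a log2 fold change of -0.41 ± 0.14 (edgeR, adjusted p = 0.241). The difference was 0.01 in the authors' normalized counts (limma on log2 of the value + 1, adjusted p = 0.992). Over all settings its adjusted p ranged from 0.0738, without S144, to that value. There the factor dividing Calb1, relative to the mouse's median, was between 0.99 and 1.28 in the hAPOE3 females and between 0.84 and 0.93 in the hAPOE4 females. Next by p-value stood 2 GABAA subunit genes. Gabra4 was at 92.6, 94.1, 106, 107 and 117 CPM in hAPOE3 females and at 83.7, 88.9, 92.2, 95.4 and 108 in hAPOE4 females. Gabra2 was at 231, 240.3, 250, 294 and 301 CPM in hAPOE3 females and at 206, 214, 216, 237 and 253 in hAPOE4 females. Both ranges overlapped between genotypes. The log2 fold change was -0.14 ± 0.09 for Gabra4 and -0.22 ± 0.18 for Gabra2 (edgeR, adjusted p = 0.664 and 0.735). The set's median was -0.02, with 12 genes higher and 17 lower.

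Over both sexes, hAPOE4 against hAPOE3 again gave 0 of 29, in a comparison that called 2.45% of all genes. At an unadjusted p under 0.05 there were 3, or 10.3%, against 17.9% of all genes. Calb1 was lower (-0.28 ± 0.10, edgeR adjusted p = 0.133), as was Pvalb (-0.46 ± 0.19, adjusted p = 0.205), and Kcnc1 was higher (0.27 ± 0.11, adjusted p = 0.224). None of these passed. With the thalamus marker score as a covariate, a setting chosen after seeing the data, Pvalb passed (-0.52 ± 0.14, edgeR adjusted p = 0.0456) and was the only gene of the set to do so. Over the settings tried other than leaving out single mice, its adjusted p ranged from 0.0456 to 0.822. Without the 5 hAPOE3 mice named above its log2 fold change was 0.08, and Kcnc1 differed by 0.04. The hAPOE3 mice left in that fit were S144, S145, S146, S154 and S155. In the authors' normalized counts Calb1 was 0.09 higher in hAPOE4 mice (limma, adjusted p = 0.673).

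**Figure D3:**
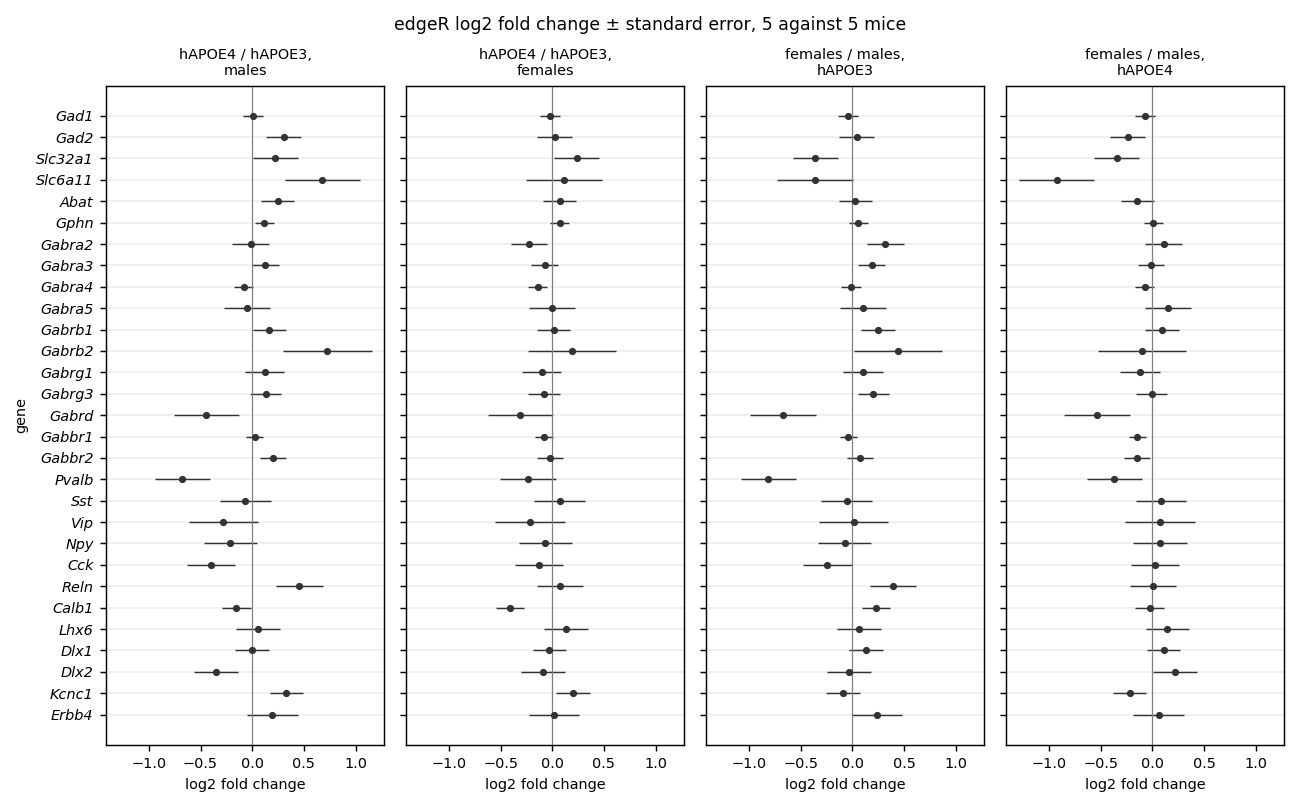
Log2 fold change (points) and standard error (bars) of the 29 genes from edgeR in 4 comparisons of 5 against 5 mice, with 0 marked. Pvalb and Gabrd lie lower in females in both genotypes, and no gene passed the adjusted threshold.

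Sex was compared within each genotype. Between females and males of hAPOE3 mice 0 of the 29 genes passed, where 0.0414% of all genes did, and 2 (6.9%, against 5.22% of all genes) had an unadjusted p under 0.05. Pvalb averaged 33.1 ± 7.002 CPM in females and 58.0 ± 29.7 in males, a log2 fold change of -0.81 ± 0.27 (edgeR, adjusted p = 0.805). Gabrd averaged 22.6 ± 4.55 and 35.9 ± 19.6 CPM, a log2 fold change of -0.67 ± 0.32 with the same adjusted p. Without S158, these values were -0.52 and -0.38. Gabra2 was next, at 0.32 ± 0.18.

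Between females and males of hAPOE4 mice 0 genes of the set passed, against 0.437% of all genes, and 1 (3.45%, against 5.8%) did so unadjusted. Slc6a11 averaged 109 ± 8.65 CPM in females and 207 ± 166.2 in males, a log2 fold change of -0.93 ± 0.37 (edgeR, adjusted p = 0.64). Without S176 it was -0.31, and without S158, S176 and S178 it was -0.01. Gabbr1, at 570 ± 39.1 and 630 ± 73.2 CPM, differed by -0.15 ± 0.08 (edgeR, adjusted p = 0.971), which became -0.08 without S176, and Gabrd by -0.53 ± 0.32, which became -0.17 without S178.

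Over both genotypes 0 of 29 differed by sex, against 0.129% of all genes. Unadjusted, 4 genes (13.8%, against 10% of all genes) had a p under 0.05, all lower in females. These were Pvalb (-0.59 ± 0.19, edgeR adjusted p = 0.3), Gabrd (-0.60 ± 0.22, adjusted p = 0.359), Slc6a11 (-0.64 ± 0.26, adjusted p = 0.398) and Slc32a1 (-0.35 ± 0.15, adjusted p = 0.447). All 3 mice with high thalamus markers were males. Without them edgeR gave 0 of the 29 an unadjusted p under 0.05, against 9.21% of all genes, and the log2 fold changes were -0.26 for Pvalb, -0.21 for Gabrd, -0.01 for Slc6a11 and -0.18 for Slc32a1. With the thalamus score as a covariate over 20 mice there were also 0, against 9.67%, with values of -0.26, -0.22, -0.03 and -0.18. Both settings were chosen after seeing the data. With the choroid plexus score as a covariate there were 9 of the 29 genes, against 19.1% of all genes, Gabra2 and Gabrb1 among them, with a smallest adjusted p of 0.0565 (Pvalb, edgeR). In hAPOE3 mice alone that covariate gave 8 of the 29 genes, against 13.9%.

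**Figure D4:**
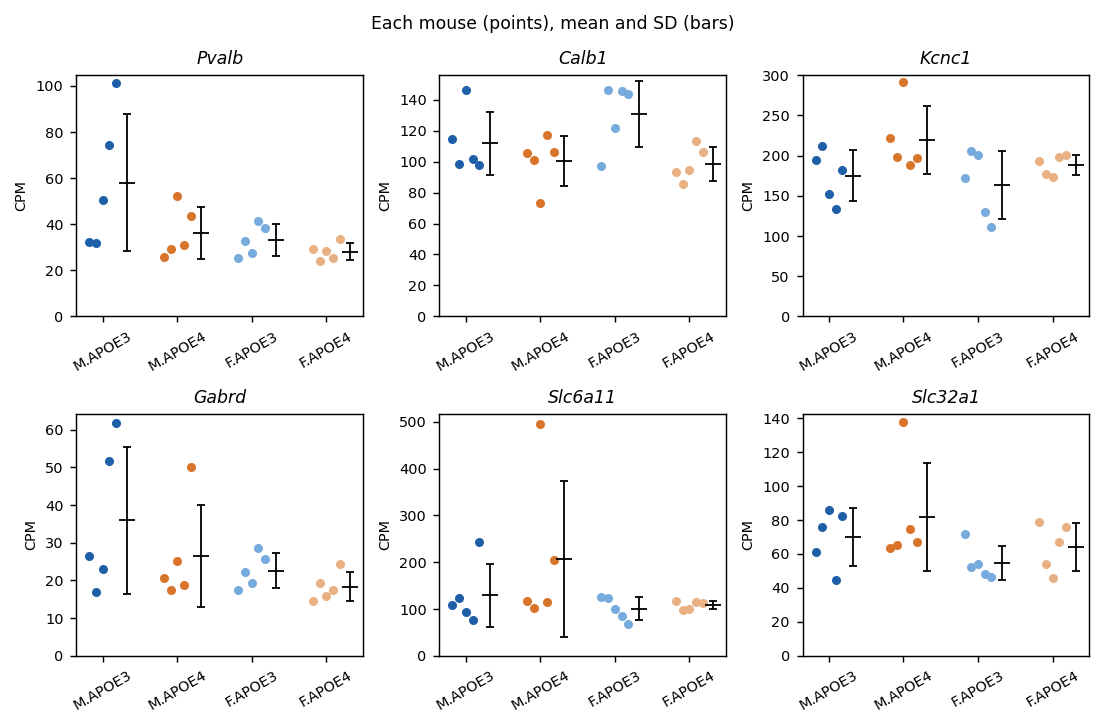
CPM of 6 genes in each mouse (points, by group), with the mean and SD of 5 mice beside them (bars). The groups overlap in each panel except that 4 of 5 hAPOE3 females lie above the hAPOE4 females for Calb1, and single males set the upper end for Pvalb, Gabrd, Slc6a11 and Slc32a1.

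The interaction asks whether the genotype difference itself differs between the sexes. Of the 29 genes 0 passed, against 0.184% of all genes, and 0 had an unadjusted p under 0.05, against 2.54%. Calb1 came first, with a genotype difference lower by 0.25 ± 0.20 in females on the log2 scale (value -0.25, edgeR adjusted p = 1.00). Gabbr2 (-0.22 ± 0.18) and Reln (-0.38 ± 0.32) followed. DESeq2's Wald test on the same counts also called 0 of the 29 genes in each of the 7 comparisons, with as many as edgeR at an unadjusted p under 0.05 in each. The smallest adjusted p it gave was 0.0906, for hAPOE4 against hAPOE3 over both sexes.

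Because several genes varied with the libraries that stood apart, each gene's slope on 2 library scores was fitted across all genes with edgeR, with the group means in the model. These fits were chosen after seeing the data, and the scores contain none of the 29 genes. On the thalamus score, over 20 mice, 10 of the 29 genes (34.5%) passed, against 19.8% of all genes. Rising with the score were Slc6a11 (0.59 ± 0.08 log2 CPM per unit of score, edgeR adjusted p = 0.000101), Abat (0.21 ± 0.05), Gabrd (0.38 ± 0.10) and Pvalb (0.35 ± 0.08). Falling with it were Gabra5 (-0.39 ± 0.06, edgeR adjusted p = 9.73e-05), Vip (-0.52 ± 0.12), Gabra2 (-0.27 ± 0.05), Gabrb1 (-0.22 ± 0.06), Dlx1 (-0.19 ± 0.06) and Gphn (-0.12 ± 0.03). In the 17 mice left without S158, S176 and S178 the fit called 0 of the 29 genes and 0% of all genes. At an unadjusted p under 0.05 it had 2 of the 29 genes, against 3.74% of all genes. The score of the 17 mice spans only -0.68 to -0.08, against 2.03 to 2.19 in the 3, so that fit could hardly detect such slopes. Whether they hold among the 17 cannot be told, and over 20 mice they draw mainly on those 3 mice. Other marker sets differed in these mice too. The excitatory neuron marker score was -1.01, -0.80 and -0.49 in S158, S176 and S178 and between -0.15 and 0.36 in the others. The summed oligodendrocyte markers were at 13510 CPM in S158, 9811 in S176 and 6597 in S178, and at most 6465 in the others. The part of either marker set in the slopes was not tested.

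On the oxidative phosphorylation score within the 10 hAPOE3 mice, where the score fell in separate ranges of 5 mice each, 14 of the 29 genes (48.3%) passed, against 27.6% of all genes. Because of those separate ranges, a slope there mainly sets 5 mice against the other 5. Gabrb2 had the steepest slope, -2.97 ± 0.23 (edgeR, adjusted p = 3.64e-05), ahead of Reln (-1.50 ± 0.20, adjusted p = 0.000366) and Erbb4 (-1.37 ± 0.31). Kcnc1 (-0.93 ± 0.18), Gabrg1 (-0.85 ± 0.25), Gabbr2 (-0.82 ± 0.13), Gabrb1 (-0.72 ± 0.20), Gad2 (-0.67 ± 0.22), Gabrg3 (-0.60 ± 0.16) and Gphn (-0.34 ± 0.11) fell as well. The 4 that rose were Pvalb (1.42 ± 0.35), Cck (1.20 ± 0.25), Npy (1.10 ± 0.28) and Sst (0.91 ± 0.30). Those that fell included 4 GABAA subunit genes, the GABAB gene Gabbr2, Gphn and Kcnc1, while those that rose were 3 peptide genes and Pvalb. S158, among the 5 high-score mice, also had high thalamus markers, and Pvalb, Gphn and Gabrb1 passed on the thalamus score too. S158 had the highest Pvalb (101 CPM) of all mice, and the lowest Erbb4 (23.8), Gphn (56.1), Gabrb1 (128) and Gabrb2 (28.1). Its Cck (181), Npy (20.9) and Sst (94.8) were the lowest of the high-score mice. No slope on this score was fitted without S158, so its part in these slopes was not tested. The fits used the deposited counts and not the authors' normalized counts. In the latter Gphn lay between 2677 and 3270 in the 5 high-score mice and between 2780 and 3177 in the other hAPOE3 mice. Reln was not set apart there either, while Gabrb2 was. In the 10 hAPOE4 mice, where the score spans a narrower range, 0 of 29 genes and 0% of all genes passed. At an unadjusted p under 0.05 there were 9 of the 29 genes, a larger share than the 9.91% of all genes. Of these, Sst, Npy and Cck rose with the score, and Gad2, Slc32a1, Slc6a11, Abat, Gabrb2 and Gabrg1 fell. Sst (4.37 ± 0.93), Npy (4.53 ± 1.06) and Cck (3.42 ± 0.80) had the same sign there as in hAPOE3 mice (edgeR, adjusted p = 0.367 for each), as did Gabrb2 (-3.85 ± 1.49). Pvalb did not (-0.93 ± 1.22).

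**Figure D5:**
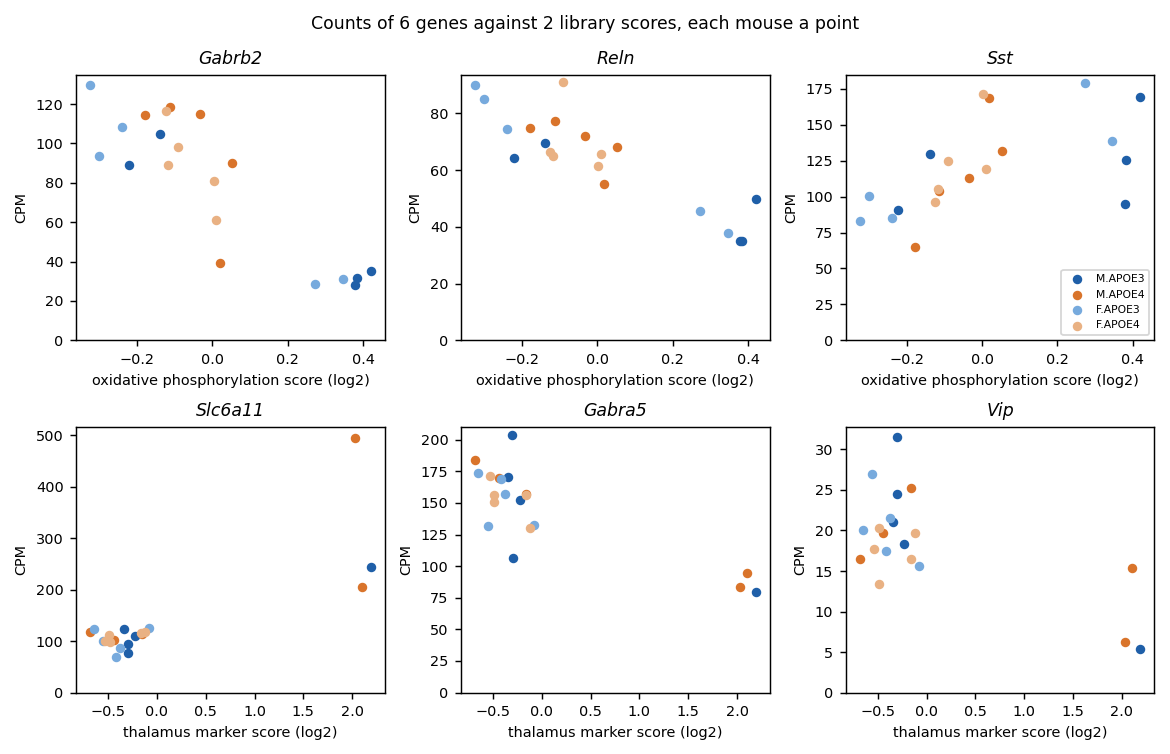
CPM of Gabrb2, Reln and Sst against the oxidative phosphorylation score (top) and of Slc6a11, Gabra5 and Vip against the thalamus marker score (bottom), 1 point per mouse coloured by group. The 5 hAPOE3 mice with scores above 0.27 hold the lowest Gabrb2 and Reln, and the 3 mice with thalamus scores of 2.03 to 2.19 the highest Slc6a11 and lowest Gabra5.

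Pairs of genes were compared over the 20 mice as log2 CPM with group means removed, 14 relations in all (two-sided permutation tests, 100000 resamples within groups, Benjamini-Hochberg over the 14), and 5 had an adjusted p under 0.05 for Pearson's r. Dlx1 and Dlx2, neighbours on chromosome 2, had r = 0.90 (rho = 0.81, adjusted permutation p = 0.00028 for r and 0.00119 for rho). Without the 2 mice farthest from the median r was 0.83. Sst and Npy had r = 0.86 (rho = 0.82, adjusted permutation p = 0.0007 and 0.00119), and 0.79 without the 2 farthest mice. Gad1 and Gad2 had r = 0.80 (rho = 0.73, adjusted permutation p = 0.0007 and 0.00455), and 0.71 without 2 mice. Gad2 and Slc32a1 had r = 0.79 (rho = 0.76, adjusted permutation p = 0.00185 and 0.00224), and 0.64 without 2 mice. These 4 relations stayed between 0.75 and 0.84 without S158, S176 and S178. Lhx6 and Sst, a transcription factor and a peptide of the same lineage, had r = 0.62 (rho = 0.63, adjusted permutation p = 0.0279 and 0.00941), and 0.43 without S158 and S176 and 0.31 without the 3 mice, so that the relation rests on those mice.

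The astrocyte marker score and Slc6a11 had r = 0.48 (rho = 0.58, adjusted permutation p = 0.0627 and 0.0317), and r = 0.64 without the 2 mice farthest from the median. Without the 3 mice with high thalamus markers r was 0.85. Pvalb and Kcnc1, both of fast-spiking cells, had r = -0.25 (rho = -0.26, adjusted permutation p = 0.404 and 0.414). Without the 3 mice, a setting chosen after seeing the data, their r was -0.71 (adjusted permutation p = 0.0447). That setting kept S147, S148, S156 and S157, with the high oxidative phosphorylation score. These had Pvalb at 38.6 to 74.3 CPM and Kcnc1 at 111 to 153. The other hAPOE3 mice had Pvalb at 25.3 to 32.5 CPM and Kcnc1 at 173 to 212, so the relation is not read. In the authors' normalized counts r was 0.10, and within the 10 hAPOE4 mice it was 0.57. Gad2 with the striatum score (r = -0.03, rho = -0.14), Calb1 with the dentate granule cell score (r = 0.35, rho = 0.48), Gabrd with the same score (r = -0.39, rho = -0.25) and Reln with the Cajal-Retzius score (r = -0.11, rho = -0.17) had adjusted p-values from 0.0789 to 0.911 in the same permutation tests. Dlx1 with the striatum score had r = -0.57 (rho = -0.46, adjusted permutation p = 0.0627 and 0.0789), and 0.05 without the 3 mice. For Gphn and Gabra4 with the oxidative phosphorylation score the relation over 20 mice is not read, because the score forms separate ranges. Within the 10 hAPOE4 mice r was 0.08 (permutation p = 0.858) and 0.18 (permutation p = 0.644).

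The other genes of the GABA system and of interneurons gave the same count. Of 110 genes in 7 lists, from enzymes and transporters to receptor assembly, chloride transport and further interneuron markers, 108 were in the table and 104 were tested. In each of the 7 comparisons 0 passed edgeR's adjusted test. All genes passed it at 0.0414% to 2.45%, depending on the comparison. At an unadjusted p under 0.05 the share for genotype was 7.69% in males (9.06% of all genes), 6.73% in females (10.1%) and 14.4% over both sexes (17.9%). For sex it was 4.81% in hAPOE3 (5.22% of all genes), 4.81% in hAPOE4 (5.8%) and 9.62% over both (10%), and for the interaction 0 genes (2.54%).

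Nearest to the threshold was Dlx6, a homeobox gene of the same family as Dlx1 and Dlx2. Dlx6 averaged 9.06 ± 2.61 CPM in M.APOE3, 5.79 ± 1.33 in M.APOE4, 8.14 ± 2.78 in F.APOE3 and 5.68 ± 0.93 in F.APOE4. It was at 8.38 to 12.5 CPM in S147, S148, S156, S157 and S158, and at 4.75 to 9.09 in the other hAPOE3 mice. The hAPOE4 mice lay between 4.43 and 7.75 CPM. The log2 fold change of Dlx6 for hAPOE4 over both sexes was -0.59 ± 0.16 (edgeR, adjusted p = 0.0588). Cort, the gene of the somatostatin-like peptide cortistatin, was next in that comparison, 0.74 ± 0.23 higher in hAPOE4 mice (edgeR, adjusted p = 0.0873), and first between the female genotypes (1.05 ± 0.32, adjusted p = 0.180). In that female comparison Rbp4, which encodes retinol-binding protein, followed (0.58 ± 0.21, edgeR adjusted p = 0.273), and it came first in the interaction (0.53 ± 0.29, adjusted p = 1.00) ahead of Crh. In males, Lamp5, a marker of neurogliaform cells, was 0.79 ± 0.27 lower in hAPOE4 (value -0.79, edgeR adjusted p = 0.335). Of the hAPOE3 males, S157 was at 125.2 CPM and the others between 34.2 and 49.0. By sex, Crh, corticotropin-releasing hormone, was lowest by p-value in hAPOE3 mice (-0.74 ± 0.22, edgeR adjusted p = 0.805), followed by the GABA receptor subunit gene Gabrr2 (-0.91 ± 0.35). In hAPOE4 mice the adrenergic receptor gene Adra1b (-1.35 ± 0.46, edgeR adjusted p = 0.499) and the complexin gene Cplx1 (-0.31 ± 0.12) had the smallest p-values, and over both genotypes Adra1b (-1.13 ± 0.32) and Crh (-0.50 ± 0.16).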

How the data were processed

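Hippocampal polyA RNA of 20 mice was sequenced by the authors, 1 library a mouse, and mice were grouped by labelled sex and genotype. The replicates are separate mice. The authors assigned reads to transcripts with Salmon (0.91 in the submitters' notes) condensed transcripts to genes with tximport and deposited the estimated counts, whole numbers without normalization. A second deposited table holds their normalized counts, a signal from DESeq2 in which the divisor of a count varies by gene as well as by mouse, and the divisors were not retraced here. Columns left unmatched to a mouse numbered 0.

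Counts, 35778879 to 52520279 a mouse, entered edgeR 4.0.16 (R 4.3.3) with TMM, filterByExpr, quasi-likelihood fits with 1 mean per group over 20 mice, and Benjamini-Hochberg adjustment over 21724 genes at 0.05. Log2 CPM, used for scores, spread and relations between genes, carry a prior count of 2, and CPM none. Comparisons that share a group of mice are not independent, the 7 being drawn from 4 groups. Alternatives were DESeq2 1.42.0, its size factors in edgeR, no filter, limma 3.58.1 on log2 of the normalized counts + 1, pairs of groups alone, marker scores as covariates and leaving out each mouse. Relations between genes used permutation in python 3.11.15 (numpy 2.4.6, scipy 1.17.1). Scripts were tested on simulated data. Levels per kb used GENCODE vM21 exons on GRCm38. Promoter sequences are RefSeq's (GRCm38.p6), with an entry for 26 of the 29 genes.

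The genes and lists were chosen with earlier results of these data known. In each comparison the 3 genes of the set with the smallest p are named where none passed, and 2 of the wider lists. Where a gene of the set was named for a slope or for its spread, it was chosen after its values were seen.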

Additional observations from a re-analysis of the deposited data

Results flagged for a closer look

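A single mouse stood apart from the other 4 of its group, by Dixon's test at the 95% level, in 10 of 116 sets of 5 values (8.62%). Chance alone gives such a gap in about 1 of 20 sets. Of the 10, 5 were values of S176, an hAPOE4 male with high thalamus markers. In S176 Slc6a11 was at 495 CPM (others of the group at most 205), Abat at 411 (at most 251) and Slc32a1 at 138 (at most 75.0), while Cck was at 103 CPM (others at least 181) and Lhx6 at 6.96 (at least 16.7). Among the other interneuron genes, Sst, Npy, Calb1, Dlx1 and Dlx2 also had their lowest value of the 20 mice in S176. Pvalb, at 52.2 CPM, and Reln, at 74.8, were not low there.

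S158, an hAPOE3 male with high thalamus markers, had Slc6a11 at 244 CPM, above the 75.9 to 123 CPM of its group, and S178, an hAPOE4 male of the same kind, had Gabrd at 50.2 CPM, above 17.5 to 25.1. Other single high values were Gabrg3 at 24.4 CPM in S155 (hAPOE3 males, others at most 18.4), Gabbr1 at 639 CPM in S168 (hAPOE4 females, others at most 554) and Reln at 90.9 CPM in S164 (hAPOE4 females, others at most 66.5).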

How the results depend on the processing

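Leaving out each of the 20 mice in turn, the number of the 29 genes past the threshold stayed at 0 (lowest 0, highest 0) in all 7 comparisons, and 420 of 420 log2 fold changes of the named genes kept their direction and stayed short of the threshold. Under the other settings of the methods, of 159 values all but 2 did so, these being Calb1 in the authors' normalized counts, at 0.00669 in females and 0.0927 over both sexes. The lowest adjusted p was 0.056 without 1 mouse and 0.0565 otherwise. Of the alternatives chosen after seeing the data, the thalamus score as a covariate gave 1 gene past the threshold (Pvalb, -0.517) for genotype over both sexes. Without S147, S148, S156, S157 and S158 the log2 fold change of Pvalb was 0.172 in males and 0.0797 over both sexes. S154 and S155 were then the only hAPOE3 males left. In the authors' normalized counts the correlation of Pvalb and Kcnc1 was 0.0956, against -0.248 in CPM, and that of Gphn and the oxidative phosphorylation score, not read as a relation over 20 mice, also turned positive (0.0716). Without S158, S176 and S178 correlations changed sign for Dlx1 and the striatum score (0.049), Gabrd and the dentate granule cell score (0.203) and Reln and the Cajal-Retzius score (0.00721). Apart from the choice of mice, the causes were not tested. No paired analysis was possible because the labels give no replicate numbers that groups share. With 5 mice a group, log2 differences of widely spread genes were held only within broad limits, as for Slc6a11 in males (-0.09 to 1.45, 95% interval for hAPOE4 against hAPOE3).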

Other observations

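Some genes of the wider GABA and interneuron lists were set by single mice. Adra1b was at 11.0 CPM in S158, 13.7 in S176 and 13.1 in S178, the mice with high thalamus markers. Cplx1 was also highest in these mice, at 551, 555 and 486 CPM, and at most 472 in the others. Gabrr2 was at 4.25 CPM in S158 and 4.77 in S176, and at most 2.60 in the others. Lamp5 was at 125.2 CPM in S157 and between 22.8 and 49.0 in the other 19 mice.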
